A study of Mus musculus with 12 samples.

Results

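The mitochondrial ribosomal protein genes of mouse ventricle were taken as every gene whose symbol began with Mrpl or Mrps followed by a digit, with names ending in a pseudogene mark left out. The rule found 77 genes among the 14957 genes of the deposited count tables, 48 named Mrpl for the large subunit and 29 named Mrps for the small subunit. Mrpl23-ps1 and Mrpl48-ps were the 2 symbols left out. The rule used names only and no measured value. All 77 genes passed the filter on low counts, the lowest count of any of them in any library being 42.

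The study measured bulk RNA in ventricles of wild-type C57Bl/6J mice, 4 mice in each of 3 groups, and the labels give no ages. The mice labelled Sham-NT were operated on without constriction and were given PBS. TAC-mScarlet mice had transverse aortic constriction (TAC), which narrows the aorta and raises the pressure load on the left ventricle, and received AAV9-MHCK7-mScarlet, a viral vector that carries a red fluorescent protein under a muscle promoter. TAC-BacNav mice had the same operation and received AAV9-MHCK7-BacNav-mScarlet, in which the promoter drives BacNav, a bacterial voltage-gated sodium channel, together with the fluorescent protein. Constriction and vector change together between Sham-NT and either TAC group, so their contributions cannot be told apart, while TAC-BacNav and TAC-mScarlet differ in the vector. The labels number the mice separately, so p-values measure the spread between animals.

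Mitochondria keep their own ribosome, which translates the few messages of the mitochondrial genome, all of them for subunits of the respiratory chain and the ATP synthase. Its RNAs are made inside the organelle, but every one of its proteins is encoded in the nucleus, made in the cytosol and imported. Some of these proteins descend from bacterial ribosomal proteins, and others were added in mitochondria. The heart is rich in mitochondria, and inherited defects in several of these genes cause cardiomyopathy.

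The 12 libraries held between 5360869 and 11497836 counts, and the 4 Sham-NT libraries (5360869 to 7837342) were all shallower than the 4 TAC-mScarlet libraries (8275608 to 9813733). The TAC-BacNav libraries held 7361063 to 11497836 counts. Mitochondrial ribosomal protein genes took 0.721% ± 0.0565 of the counts in Sham-NT, 0.645% ± 0.0168 in TAC-mScarlet and 0.680% ± 0.0542 in TAC-BacNav (SD, n = 4 each). Cardiomyocyte markers were present in every library, the 8 fixed markers summing to at least 40267 CPM (counts per 1000000 counts of the library, TMM-scaled). The third Sham-NT library and the fourth TAC-BacNav library were the deepest of their groups and stood apart from their group in many of the genes below, so results that rest on them are given with and without them.

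Windows upstream of the genes are shown for the members on which the comparisons turn: 3 of the 4 genes that fell in TAC-mScarlet, and Mrps23, whose TAC-mScarlet values all lay above its Sham-NT values. Each is the 250 bases before the RefSeq start (GRCm38.p6), on the strand of the gene, for Mrpl14 at chr17:45686099-45686348, Mrpl28 at chr17:26123253-26123502, Mrpl45 at chr11:97315466-97315715 and Mrps23 at chr11:88204138-88204387, all on the plus strand. Capitals mark matches to GCGCANGCG on either strand, the letters bound by the transcription factor NRF1.
Mrpl14: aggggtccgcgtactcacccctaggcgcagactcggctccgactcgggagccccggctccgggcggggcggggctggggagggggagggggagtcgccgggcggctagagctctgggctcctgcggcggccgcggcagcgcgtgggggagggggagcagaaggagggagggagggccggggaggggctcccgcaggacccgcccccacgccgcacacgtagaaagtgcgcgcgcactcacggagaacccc
Mrpl28: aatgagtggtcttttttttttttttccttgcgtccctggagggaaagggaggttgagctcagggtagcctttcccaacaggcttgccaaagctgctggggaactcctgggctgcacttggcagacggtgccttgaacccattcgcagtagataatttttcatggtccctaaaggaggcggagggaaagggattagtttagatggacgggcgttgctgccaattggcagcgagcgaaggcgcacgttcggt
Mrpl45: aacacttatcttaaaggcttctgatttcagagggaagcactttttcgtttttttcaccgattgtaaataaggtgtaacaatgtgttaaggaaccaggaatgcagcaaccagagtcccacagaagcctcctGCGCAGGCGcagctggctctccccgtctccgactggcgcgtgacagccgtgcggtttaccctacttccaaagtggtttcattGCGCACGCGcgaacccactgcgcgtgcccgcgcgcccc
Mrps23: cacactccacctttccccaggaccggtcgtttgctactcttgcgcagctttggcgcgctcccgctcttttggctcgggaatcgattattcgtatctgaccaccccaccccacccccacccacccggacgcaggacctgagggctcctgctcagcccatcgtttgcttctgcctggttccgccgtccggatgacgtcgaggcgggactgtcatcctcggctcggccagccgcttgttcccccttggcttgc

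The window of Mrpl45 held 2 such matches and the other 3 windows held none. RefSeq windows were found for 68 of the 77 genes, 74 windows in all, and 4 short motifs were searched on both strands. GCGCANGCG (NRF1) occurred in 17.6% of the members' windows and in 5.16% of the 32851 windows of all genes. CCGGAAG, bound by ETS factors such as GABP, occurred in 23.0% of the members' windows and 6.91% of all. AAGATGGCG (YY1) occurred in 2.70% of the members' windows, those of Mrpl36 and Mrps11, and in 0.606% of all. AAGGTCA, bound by estrogen-related receptors, occurred in 4.05% and 4.08%. The windows of all genes were not limited to genes tested in these hearts. Windows of expressed genes alone, or of matched base content, were not compared. NRF1 and GABP are known regulators of nuclear genes for mitochondrial proteins. Between TAC-mScarlet and Sham-NT the median log2 fold change was -0.16 over the 13 genes with the NRF1 letters (9 below 0), -0.27 over the 17 with the ETS letters (17 below 0) and -0.28 over the 37 with none of the 4 motifs (35 below 0), with some windows holding more than 1 motif. A match is a run of letters and says nothing of binding in these hearts.

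Levels between genes were compared as CPM per kilobase of the median annotated transcript, averaged over the 12 libraries. Mrpl42, a mitochondria-specific protein of the large subunit, was highest at 767 CPM per kilobase. Mrpl30, a large-subunit protein with a bacterial counterpart, followed at 513, and Mrps21, a small-subunit protein with a bacterial counterpart, at 415. The lowest were Mrpl19 at 7.68, Mrps25 at 8.96 and Mrps26 at 9.13 CPM per kilobase. These 3 genes have long annotated transcripts, and the per-kilobase level depends on which transcript the heart uses. In CPM without the length, the members ran from a mean of 12.1 for Mrps18b to 507 for Mrpl42.

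The level of the whole group was summarised in each library as the mean log2(CPM + 1) over the 77 genes. In Sham-NT it was 6.36, 6.35, 6.09 and 6.34 in mice 1 to 4, with a mean of 6.28 ± 0.127 (SD). In TAC-mScarlet it was 6.09, 5.96, 6.02 and 6.08, with a mean of 6.04 ± 0.0585. In TAC-BacNav it was 6.25, 6.20, 6.14 and 5.90, with a mean of 6.13 ± 0.153. The 4 TAC-mScarlet values lay below all 4 Sham-NT values, but the third Sham-NT library nearly met the highest of them. The TAC-BacNav values spanned the range from below the lowest TAC-mScarlet library to close to the upper Sham-NT libraries, with the fourth mouse lowest of all 12. The number of members above their own 12-library mean gave the same order of the groups, though not of the single libraries. It was 64, 67, 32 and 71 in Sham-NT, 20, 5, 20 and 27 in TAC-mScarlet, and 64, 54, 41 and 8 in TAC-BacNav.

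**Figure D1:**
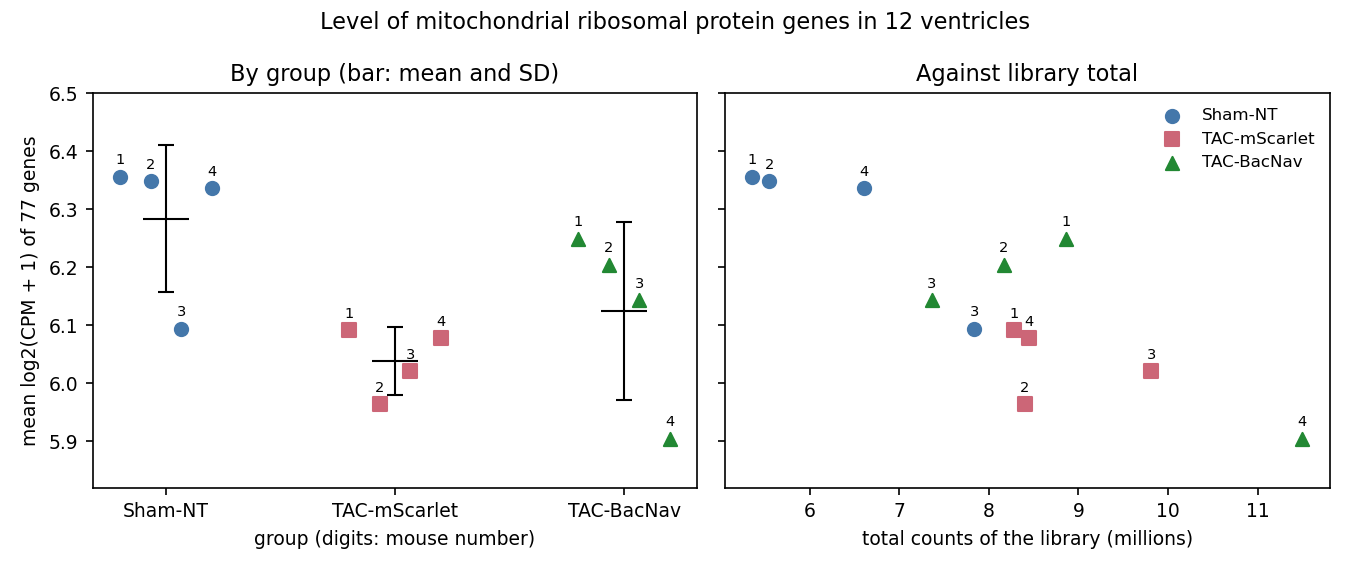
Mean log2(CPM + 1) of the 77 mitochondrial ribosomal protein genes in each of 12 ventricles, by group on the left (points are mice, bars the mean and SD) and against the library's total counts on the right. The 3 shallowest libraries, all Sham-NT, have the highest values (6.34 to 6.36), and the deepest, the fourth TAC-BacNav library, has the lowest (5.90).

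The first comparison, TAC-mScarlet against Sham-NT, shows what differed in the constricted heart that carried the control vector. Mitochondrial ribosomal protein genes were mostly lower: 70 of the 77 log2 fold changes were below 0, with a median of -0.27, where the median over all 13910 genes tested was 0.0044. The differences were small, from -0.93 for Mrpl14 to 0.22 for Mrps23. By the quasi-likelihood test of edgeR, with p-values adjusted by Benjamini and Hochberg's method over all genes, 4 members fell (Mrpl14, Mrps35, Mrpl28 and Mrpl45) and 0 rose. That is 5.19% of the members, where 5.17% of all genes were called in either direction, 2.52% lower and 2.65% higher, so the count of calls is near that of genes at large and is no result about the members. At an unadjusted p under 0.05, 35 members (45.5%) were lower and 0 higher, against 11.2% and 11.0% of all genes. That count of 35 lower members became 14 with scaling by library size alone (6.00% of all genes lower) and 3 with log2 of the total count as a covariate (4.17%). It was 22 to 23 without the first, the second or the fourth Sham-NT library (8.68% to 9.55%) and 44 without the third (12.7%). The libraries were also split by Fos, an immediate-early gene, at 20 CPM, a split known from earlier results of these data. With the Fos side as a covariate the count was 45 (13.1%), and in the libraries with Fos above 20 CPM it was 45 (11.9%). The libraries with Fos under 20 CPM hold 1 TAC-mScarlet library, so no count by p is given for them. Among them 61 of 77 values were below 0, a count of directions that cannot be set beside the counts of 35 and 45. The 4 TAC-mScarlet values lay below all 4 Sham-NT values for 16 members (20.8%), against 6.79% of all genes, and above them for 1 member, Mrps23, against 6.32%.

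Mrpl14 (ENSMUSG00000023939.7, chr17:45686322-45698495, plus strand, GRCm38), a large-subunit protein with a bacterial counterpart that lies at the interface between the subunits, had the largest difference. Its CPM was 108, 105, 61.7 and 93.3 in Sham-NT, 48.0, 49.2, 50.3 and 45.9 in TAC-mScarlet, and 77.5, 69.8, 72.8 and 44.4 in TAC-BacNav. The TAC-mScarlet mice lay close together and below every Sham-NT mouse, and 3 of the 4 TAC-BacNav mice lay between these groups. Mrpl14 fell by 47.4% in TAC-mScarlet, a log2 fold change of -0.93 ± 0.18 (SE; edgeR adjusted p = 0.0204). Its exons overlap those of Tmem63b on the opposite strand, and since no source used here states the strand setting of the counting, reads of the pair cannot be told apart.

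Mrps35 (ENSMUSG00000040112.9, chr6:147042764-147073991, plus strand), a mitochondria-specific protein of the small subunit, was at 181, 187, 128 and 177 CPM in Sham-NT, 124, 116, 100.3 and 100.1 in TAC-mScarlet, and 145, 141, 128 and 101 in TAC-BacNav. Every TAC-mScarlet value lay below every Sham-NT value, the nearest being the third Sham-NT mouse. Mrps35 fell by 34.6% (log2 fold change -0.61 ± 0.14, edgeR adjusted p = 0.0295). Its exons overlap no other annotated gene, and the same holds for Mrpl28 and Mrpl45.

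Mrpl28 (ENSMUSG00000024181.9, chr17:26123500-26126613, plus strand), a large-subunit protein with a bacterial counterpart, was at 199, 209.9, 153 and 215 CPM in Sham-NT, 143, 133, 113 and 134 in TAC-mScarlet, and 171, 172, 167 and 122 in TAC-BacNav. The groups Sham-NT and TAC-mScarlet did not overlap, and the first 3 TAC-BacNav mice lay above every TAC-mScarlet mouse. Mrpl28 fell by 32.7% in TAC-mScarlet (log2 fold change -0.57 ± 0.14, edgeR adjusted p = 0.0330).

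Mrpl45 (ENSMUSG00000018882.12, chr11:97315716-97329920, plus strand), a mitochondria-specific large-subunit protein that holds the ribosome to the inner membrane near the exit of the nascent chain, was at 92.3, 88.0, 117 and 103 CPM in Sham-NT and 80.0, 67.1, 59.6 and 80.0 in TAC-mScarlet. In TAC-BacNav it was at 97.7, 90.1, 88.6 and 88.5 CPM, above every TAC-mScarlet value. For this gene the third Sham-NT library was the highest of its group, not the lowest. Mrpl45 fell by 28.4% in TAC-mScarlet (log2 fold change -0.48 ± 0.12, edgeR adjusted p = 0.0368).

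**Figure D2:**
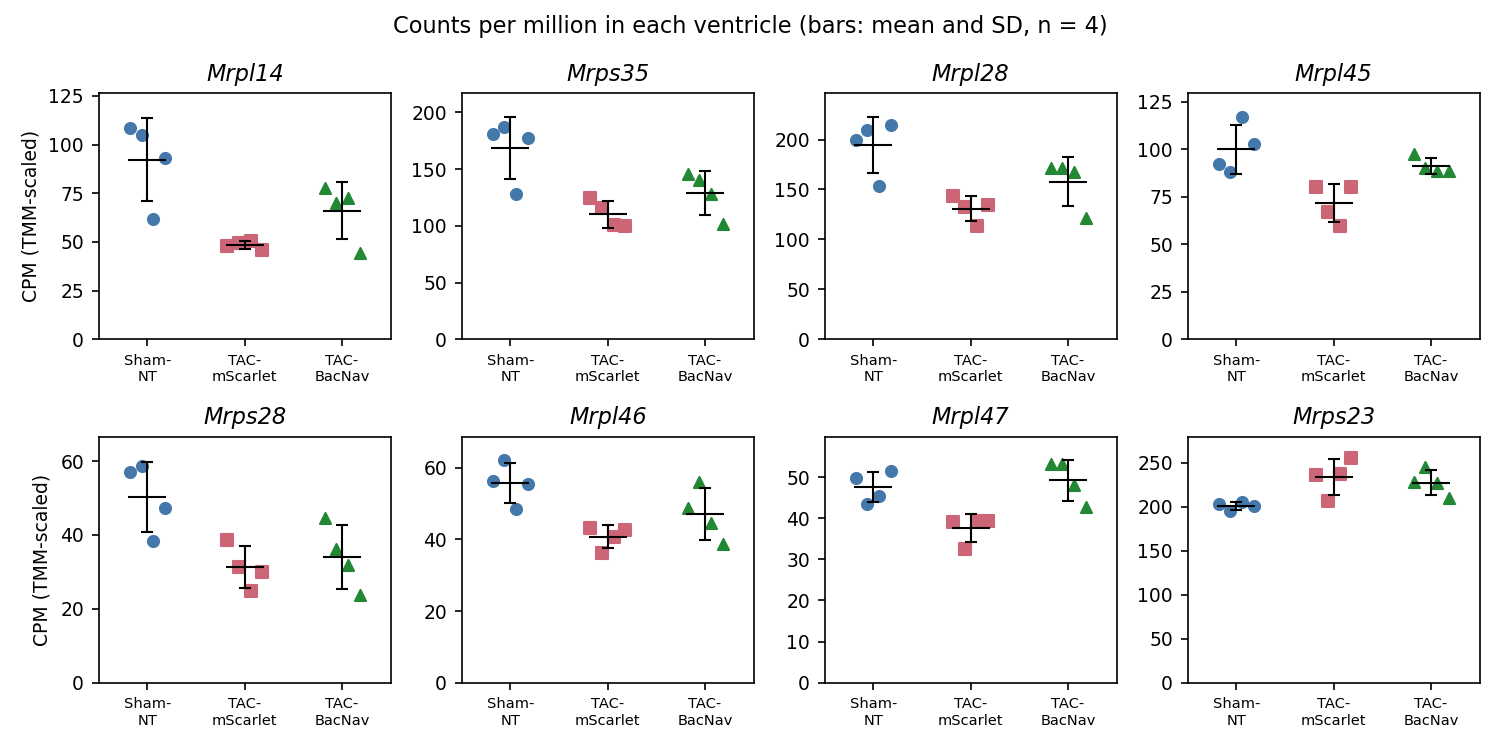
CPM (TMM-scaled) of 8 genes in each ventricle, with the mean and SD of 4 mice per group as bars and each axis starting at 0. In Mrpl14 the TAC-mScarlet mice lie between 45.9 and 50.3 and the Sham-NT mice between 61.7 and 108, and in Mrps23 the order of these groups is the opposite.

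These 4 calls rested on single libraries to different degrees. With each of the 12 libraries left out in turn, Mrpl14 was called in 10 of 12 fits, Mrps35 in 7, Mrpl28 in 6 and Mrpl45 in 4. Mrpl45 was also lost with scaling by library size alone (edgeR adjusted p = 0.0859), in a fit of only the groups compared (0.0589) and in the libraries with Fos above 20 CPM (0.130). The number of members called was 20 without the third Sham-NT library, in which most members were low (26.0%, against 7.45% of all genes), and 8 without the fourth TAC-BacNav library (10.4%, against 6.01%). It was 2 without the second TAC-mScarlet library (4.48% of all genes called), 1 without the third (0.692%) or the fourth TAC-mScarlet library (1.62%) or the first Sham-NT library (1.81%), and 0 without the second (0.0991%) or the fourth Sham-NT library (0.141%). In the fits with 0 or 1 member called, calls among all genes had also dropped, from 5.17% to 1.81% or less. A fit with log2 of the total count as a covariate, added after the data were seen, called 0 members and 0.0144% of all genes and gave a median of -0.047. DESeq2 called 14 members (18.2%, against 9.86% of all genes), and scaling by library size alone called 3 (3.90%, against 6.49%) with a median of -0.13 while it moved the median of all genes to 0.13. Since every Sham-NT library was shallower than every TAC-mScarlet library, the contributions of depth and group cannot be told apart in these samples.

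Mrps28, a small-subunit protein with a bacterial counterpart, came just outside the threshold (log2 fold change -0.69 ± 0.19, edgeR adjusted p = 0.0501). It was at 57.0, 58.7, 38.4 and 47.2 CPM in Sham-NT and 38.7, 31.3, 24.9 and 30.0 in TAC-mScarlet, and the groups overlapped through the third Sham-NT and the first TAC-mScarlet mouse. The next members by p were Mrpl46, a mitochondria-specific large-subunit protein (-0.45 ± 0.13, edgeR adjusted p = 0.0532), and Mrps25, a mitochondria-specific small-subunit protein (-0.42 ± 0.12, edgeR adjusted p = 0.0585). In both of these the TAC-mScarlet values lay below all Sham-NT values. Mrpl46 and its neighbour Mrps11 are read from opposite strands of chromosome 7 and share exon sequence, and Mrps25 shares exon sequence with Nr2c2 in the same way, so their counts are uncertain without the strand.

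Values below 0 prevailed in both subunits, among proteins with a bacterial counterpart and among mitochondria-specific ones. Among large-subunit proteins with a bacterial counterpart, 28 of 30 values were below 0 with a median log2 fold change of -0.27, and 2 genes, Mrpl14 and Mrpl28, fell. Among mitochondria-specific large-subunit proteins, 19 of 20 were below 0 with a median of -0.28, and Mrpl45 fell. Among small-subunit proteins with a bacterial counterpart, 15 of 16 were below 0 with a median of -0.27, and 0 passed by edgeR, 7 having an unadjusted p under 0.05. The mitochondria-specific small-subunit proteins had the lowest share below 0, 7 of 10, with a median of -0.14. Among them Mrps35 fell, and Mrps23, Mrps34 and Mrps18b had values above 0. The 45 members whose exons overlap no other gene had a median of -0.28, and the 32 that share exon sequence had a median of -0.23.

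**Figure D3:**
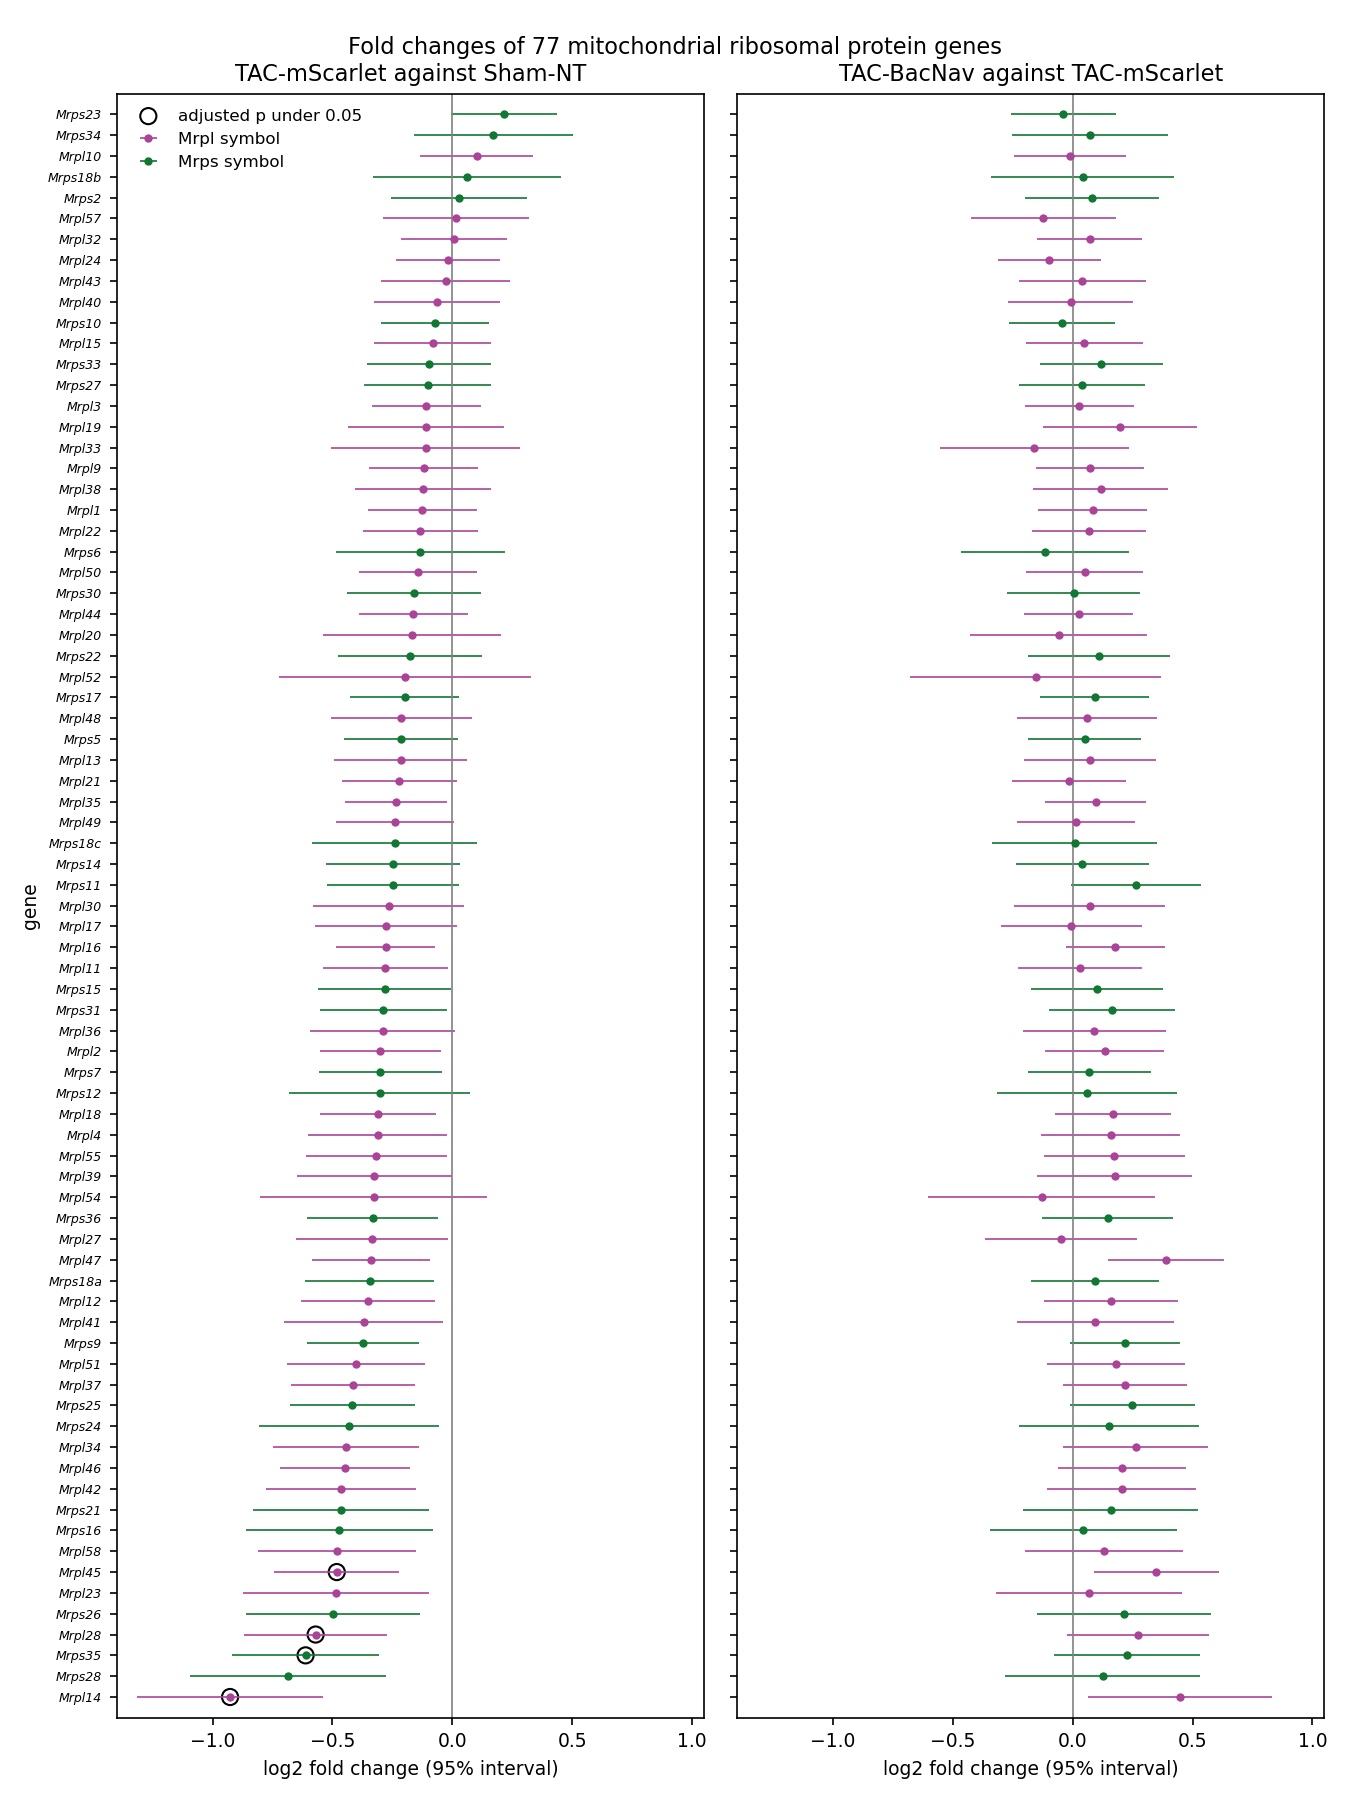
Log2 fold changes of all 77 genes with 95% intervals from edgeR, TAC-mScarlet against Sham-NT on the left and TAC-BacNav against TAC-mScarlet on the right, in the same gene order, with the 4 genes called at an adjusted p under 0.05 circled. On the left 70 points lie below 0, and on the right 63 lie above it, with 0 called.

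Members with known roles in the working ribosome were compared next. Mrpl10, Mrpl11 and Mrpl12 form the stalk region that recruits translation factors. Mrpl12 was at 218 to 304 CPM in Sham-NT and 191 to 229.9 in TAC-mScarlet (-0.35 ± 0.13, edgeR adjusted p = 0.128), while Mrpl10 stood at 42.8 to 49.3 and 43.2 to 56.8 (0.10 ± 0.11, edgeR adjusted p = 0.651). Mrpl11 gave -0.28 ± 0.12 (edgeR adjusted p = 0.191). None of the 3 passed the threshold. Mrps12, at the decoding centre, gave -0.30 ± 0.18 (edgeR adjusted p = 0.340), with the third Sham-NT mouse at 26.0 CPM and the other three at 42.9 to 50.5.

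Mammalian mitochondria have 3 relatives of the bacterial protein S18. Mrps18c takes the bacterial place in the small subunit, Mrps18b sits elsewhere in the small subunit, and Mrps18a belongs to the large subunit. Per kilobase, Mrps18a was at 135 CPM, Mrps18c at 74.2 and Mrps18b at 12.9. The log2 fold change between TAC-mScarlet and Sham-NT was -0.35 ± 0.13 for Mrps18a (edgeR adjusted p = 0.119), -0.24 ± 0.16 for Mrps18c (edgeR adjusted p = 0.420) and 0.06 ± 0.18 for Mrps18b (edgeR adjusted p = 0.889), so none of the relatives passed. Mrpl58, a peptidyl-tRNA hydrolase that rescues stalled ribosomes and became a large-subunit protein, was at 58.3 to 60.6 CPM in TAC-mScarlet and 59.7 to 105 in Sham-NT. Its groups met at the third Sham-NT library, with a log2 fold change of -0.48 ± 0.16 (edgeR adjusted p = 0.0822). Mrps30, which despite its name belongs to the large subunit, gave -0.16 ± 0.13 (edgeR adjusted p = 0.519).

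Of the genes in which inherited defects are known in patients, Mrpl3 and Mrpl44, both linked to cardiomyopathy, were close between the groups. Mrpl3 was at 174, 174, 168 and 153 CPM in Sham-NT and 173, 151, 131 and 165 in TAC-mScarlet (-0.11 ± 0.11, 95% interval -0.34 to 0.12), and the groups overlapped. Mrpl44 gave -0.16 with an interval of -0.39 to 0.06. Mrps16, a small-subunit protein with a bacterial counterpart, was at 101, 96.2, 54.8 and 93.8 CPM in Sham-NT and 66.5, 58.2, 65.3 and 58.8 in TAC-mScarlet (-0.47 ± 0.18, edgeR adjusted p = 0.143). The third Sham-NT mouse lay below every TAC-mScarlet mouse and the other three above. Mrps14 gave -0.25 ± 0.13 and Mrps22 gave -0.18 ± 0.14, with edgeR adjusted p of 0.290 and 0.508.

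Mrps23, a mitochondria-specific small-subunit protein, went the other way. It was at 203, 195, 205 and 201 CPM in Sham-NT, 236, 206, 237 and 255 in TAC-mScarlet, and 228, 246, 226 and 210.1 in TAC-BacNav. Every mouse of both TAC groups lay above every Sham-NT mouse, by a small margin, as was so for 3.08% of all genes with TAC-BacNav and 1.89% with both TAC groups, but the test was not passed (0.22 ± 0.10 in TAC-mScarlet, edgeR adjusted p = 0.235). Mrps34 (0.17 ± 0.16) and Mrpl10 (0.10 ± 0.11) had the next highest values. Mrps36 bears the family name but has since been assigned to the alpha-ketoglutarate dehydrogenase complex, and it gave -0.33 ± 0.13 (edgeR adjusted p = 0.141). Pseudogenes named after Mrps36, Mrpl23 and Mrpl48 are annotated, which makes the counts of these genes uncertain. Their sequences were not compared, and pseudogenes under other names were not searched.

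The second comparison, TAC-BacNav against TAC-mScarlet, addresses the sodium channel under the same constriction. It shares the 4 TAC-mScarlet mice with the first comparison with the opposite sign, so that a low TAC-mScarlet value lowers the one difference and raises the other by construction. No gene of the 13910 passed edgeR's test (0%), and so 0 of the 77 members did, with an adjusted p of 0.9995 for each. At an unadjusted p under 0.05, 3 members (3.90%) were higher and 0 lower, against 1.38% of all genes higher, 1.98% lower and 3.36% in either direction. DESeq2 and limma-voom also called 0 members, with 4 and 3 at an unadjusted p under 0.05. The direction was mostly upward, 63 of 77 log2 fold changes being above 0, but the median was 0.08, against 0.0036 over all genes. In the libraries with Fos under 20 CPM, which hold 1 TAC-mScarlet library, the direction turned, with 53 of 77 below 0 and a median of -0.046. In the libraries with Fos above 20 CPM, 69 of 77 were above 0 and 0 members were called. There 21 members were higher at an unadjusted p under 0.05 (3.81% of all genes higher). With the Fos side as a covariate 7 members were higher at that level (2.22%), and with log2 of the total count 8 were (1.75%). Without the fourth TAC-BacNav library the median was 0.16, with 0 members called and 11 higher at an unadjusted p under 0.05 (2.56% of all genes higher), and without the first TAC-BacNav library the median was 0.03, with 25 of 77 below 0 and 2 members higher at that level (0.995%).

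The 3 members were Mrpl47, Mrpl45 and Mrpl14, all of the large subunit. Mrpl47, which has a bacterial counterpart near the exit of the nascent chain, was at 39.2, 32.5, 39.4 and 39.3 CPM in TAC-mScarlet, 53.1, 53.2, 48.0 and 42.7 in TAC-BacNav, and 49.7, 43.5, 45.4 and 51.4 in Sham-NT. All TAC-BacNav values lay above all TAC-mScarlet values and within or near the Sham-NT range, with a log2 difference of 0.39 ± 0.11 (95% interval 0.15 to 0.63). Its exons overlap those of Actl6a and Ndufb5 on the opposite strand. Mrpl45 gave 0.35 ± 0.12 (0.09 to 0.61), again with no overlap of the groups, and Mrpl14 gave 0.45 ± 0.18 (0.07 to 0.83), with the fourth TAC-BacNav mouse, at 44.4 CPM, below every TAC-mScarlet mouse. The groups did not overlap in the upward direction for 2 members (2.60%), against 0.762% of all genes, and in the downward direction for 0, against 0.935%. An adjusted p near 1 does not show that these values were alike, and the intervals allow differences of this size.

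The third comparison set TAC-BacNav against Sham-NT, and it shares its Sham-NT mice with the first comparison and its TAC-BacNav mice with the second. By edgeR 0 members were called, where 0.0144% of all genes were, and DESeq2 and limma-voom called 0 as well. At an unadjusted p under 0.05, 8 members (10.4%) were lower and 0 higher, against 5.31% of all genes lower, 5.79% higher and 11.1% in either direction. DESeq2 gave 10 and limma-voom 5 at that level. The 8 became 33 without the third Sham-NT library (8.96% of all genes lower) and 1 without the fourth TAC-BacNav library (2.66%) or the second Sham-NT library (3.04%), and it lay at 3 to 12 without the others. The median was -0.16, and 66 of 77 values were below 0. The median was -0.23 without the third Sham-NT library and -0.10 without the fourth TAC-BacNav library, and it turned to 0.070 with log2 of the total count as a covariate. The smallest p belonged to Mrps28 (-0.56 ± 0.19, edgeR adjusted p = 0.367), followed by Mrps35, Mrpl14, Mrpl27 and Mrps16. Mrpl27, a large-subunit protein with a bacterial counterpart close to the peptidyl transferase centre, gave -0.38 ± 0.15 here and -0.33 ± 0.15 in the first comparison. With both TAC groups together against Sham-NT, Mrpl14 (-0.70 ± 0.15, edgeR adjusted p = 0.0373) and Mrps35 (-0.50 ± 0.12, edgeR adjusted p = 0.0456) fell, 2.60% of the members, against 2.57% of all genes called in either direction, 1.42% lower and 1.15% higher. With each library left out in turn, Mrpl14 was called in 7 of 12 fits and Mrps35 in 3. Without the third Sham-NT library 22 members were called (28.6%, against 6.89% of all genes), and 0 were called without any one of 5 other libraries (0.0142% to 0.640% of all genes). Limma-voom called neither (adjusted p = 0.0572 and 0.0616), scaling by library size alone lost Mrps35 (edgeR adjusted p = 0.0620), and the total count covariate left 0 of the members and 0 of all genes called.

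The order of the group means gathers these comparisons. Among the 77 genes the mean CPM was highest in Sham-NT for 65 (84.4%, against 40.5% of all genes tested), lowest in TAC-mScarlet for 59 (76.6%, against 36.1%) and in the middle in TAC-BacNav for 56 (72.7%, against 54.1%). Many of these means lie closer together than the spread of their mice. After the group means were removed, the median pairwise correlation between members across the 12 libraries was 0.46, with 77.9% of pairs above 0. It was 0.94 between cytosolic ribosomal protein genes and 0.84 between respiratory chain genes, as a description over libraries that also share depth. Those 2 lists had higher levels, with a mean log2(CPM + 1) of 8.51 and 8.89 in Sham-NT, against 6.28 for the members. Genes of matched level were not compared.

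Other genes of mitochondrial translation were counted from fixed lists in the comparison of TAC-mScarlet with Sham-NT, where 2.52% of all genes were called lower. Without Sham-NT mouse 2 or mouse 4, and with the total count covariate, 0 genes of these lists were called. The list of translation factors also had 0 called without Sham-NT mouse 1 or TAC-mScarlet mouse 3 or 4. It had 2 called without Sham-NT mouse 3 or TAC-BacNav mouse 4 and with DESeq2, among other fits. Of 5 tested mitoribosomal proteins without an Mrp name, 0 passed by edgeR (2 at an unadjusted p under 0.05), with a median of -0.23. Among them, Dap3, a GTP-binding protein of the small subunit, gave -0.34 ± 0.11 (edgeR adjusted p = 0.0924). Of 17 translation factors, 1 fell, with a list median of -0.07. It was Tufm, the elongation factor that delivers aminoacyl-tRNA, at 247, 246, 239.6 and 257 CPM in Sham-NT and 185, 186, 158 and 185 in TAC-mScarlet (-0.47 ± 0.10, edgeR adjusted p = 0.0245). The Tufm values of these groups lay far apart relative to their spread, and the TAC-BacNav values, 223, 198, 208 and 188 CPM, lay between them.

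Of the 20 genes for mitochondrial aminoacyl-tRNA synthesis, all 20 had values below 0, with a median of -0.17, and 2 fell. Gatb, part of the complex that makes glutaminyl-tRNA, was at 79.6, 81.3, 79.8 and 86.3 CPM in Sham-NT, 60.5, 57.7, 46.1 and 51.7 in TAC-mScarlet, and 67.5, 62.7, 62.4 and 59.3 in TAC-BacNav (-0.60 ± 0.11 in TAC-mScarlet, edgeR adjusted p = 0.0150). Fars2, the phenylalanyl-tRNA synthetase, gave -0.41 ± 0.11 (edgeR adjusted p = 0.0477). Of 25 assembly factors, 1 fell, Ndufab1, the mitochondrial acyl carrier protein (-0.65 ± 0.16, edgeR adjusted p = 0.0338). The assembly factors also had 0 called without Sham-NT mouse 1 or TAC-mScarlet mouse 2, 3 or 4, and 3 called with DESeq2. Of 21 genes for mitochondrial transcription and genome maintenance, 1 fell, Hsd17b10, a subunit of the mitochondrial RNase P (-0.57 ± 0.16, edgeR adjusted p = 0.0481). This list also had 0 called without Sham-NT mouse 1, TAC-BacNav mouse 2 or TAC-mScarlet mouse 1, 2, 3 or 4. The same held with limma-voom and with library size scaling, while DESeq2 called 2. That list had a median of -0.02, with Tfam, the factor that packages mitochondrial DNA, at 0.03 ± 0.13, and Polrmt, the mitochondrial RNA polymerase, at -0.39 ± 0.15 (edgeR adjusted p = 0.131).

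Of 11 regulators of mitochondrial biogenesis, 2 fell. Ppargc1a, which encodes the coactivator PGC-1alpha, was at 113, 98.3, 167 and 103 CPM in Sham-NT, 71.1, 65.5, 42.3 and 80.9 in TAC-mScarlet, and 101, 75.7, 99.8 and 151 in TAC-BacNav. Its TAC-mScarlet values lay below all Sham-NT values (-0.89 ± 0.23, edgeR adjusted p = 0.0426). The other, Esrra, an estrogen-related receptor named after its values were seen, gave -0.52 ± 0.13 (edgeR adjusted p = 0.0331). These 2 calls became 1 without Sham-NT mouse 1 or 3, TAC-mScarlet mouse 1 or TAC-BacNav mouse 1 or 3. They became 0 without Sham-NT mouse 2 or 4 or TAC-mScarlet mouse 2, 3 or 4. In the libraries with Fos above 20 CPM, and with library size scaling, 0 regulators were called. Without TAC-BacNav mouse 2 or 4, and with DESeq2 or limma-voom, the count stayed at 2. Between TAC-BacNav and TAC-mScarlet 0 genes of any of these lists passed by edgeR, as for all genes, and Ppargc1a gave 0.72 ± 0.23 with an adjusted p of 0.9995.

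Set beside the other ribosome and the respiratory chain in the comparison of TAC-mScarlet with Sham-NT, the mitochondrial ribosomal protein genes had a median between theirs. Among 79 cytosolic ribosomal protein genes the median was -0.20, with 69 below 0 and 1 called lower, 2.52% of all genes being called lower. That 1 call became 15 without the third Sham-NT library (7.45% of all genes called in either direction) and 0 without the second or the fourth. It became 14 in the libraries with Fos above 20 CPM (4.87%). The order of the list medians without the third Sham-NT library was not examined. Among 94 respiratory chain subunit genes, whose mitochondrially encoded partners the mitochondrial ribosome makes, the median was -0.57, with 93 below 0 and 30 called lower. These 30 calls became 71 without the third Sham-NT library, 2 without the first and 0 without the second or the fourth. They numbered 56 without the fourth TAC-BacNav library and 34, 16 and 22 without the first, the second and the third. Without the first, the second, the third and the fourth TAC-mScarlet library they numbered 14, 8, 0 and 0. Between TAC-BacNav and Sham-NT the medians were -0.16 for the mitochondrial ribosome, -0.23 for the cytosolic ribosome and -0.40 for the respiratory chain, so the order of the ribosomes was the opposite, and 0 were called in each. From TAC-mScarlet to TAC-BacNav the medians were 0.08 for the mitochondrial ribosome, -0.03 for the cytosolic ribosome and 0.16 for the respiratory chain, with 0 called in each. These medians describe the lists, and no test was made between them.

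**Figure D4:**
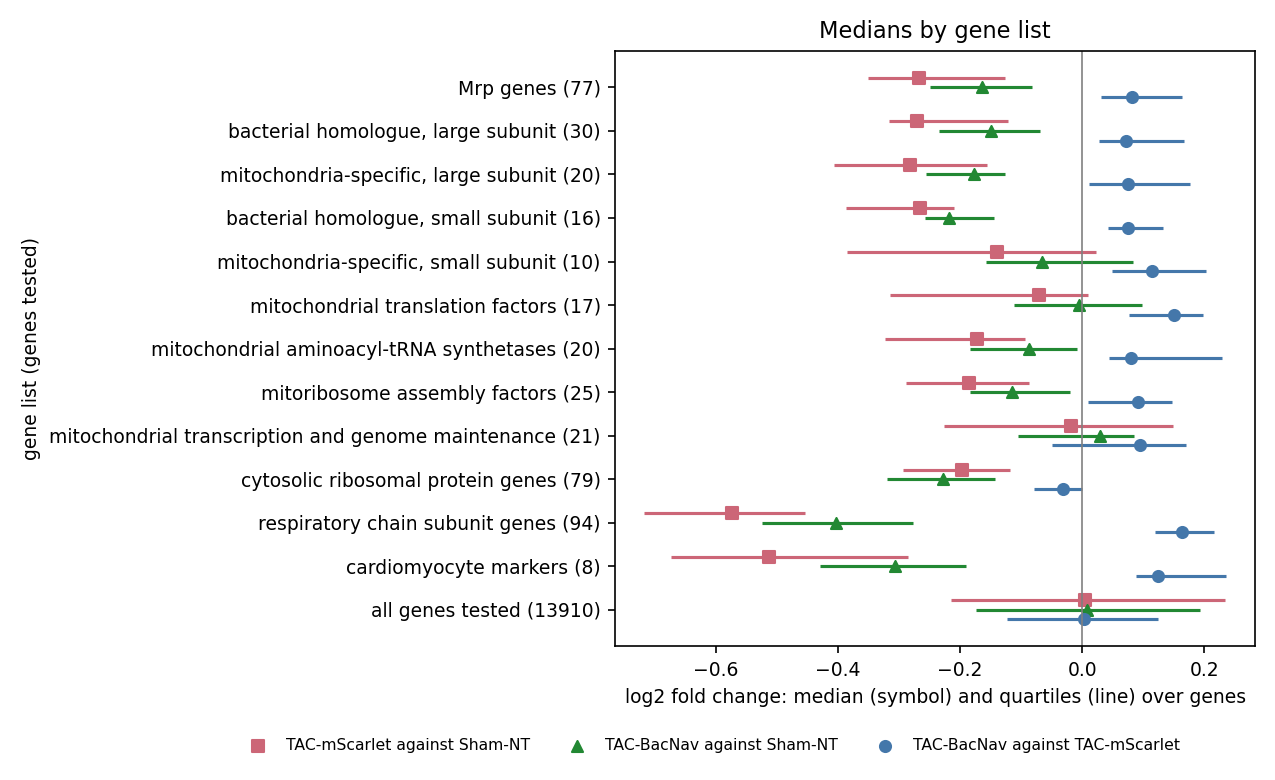
Median (symbol) and quartiles (line) of the log2 fold change over the genes of each list, with the number of genes tested in parentheses, for the 3 comparisons, each of which shares 4 mice with each of the others; the first and the last in the legend share the TAC-mScarlet mice with opposite sign. The 77 Mrp genes have medians of -0.27, -0.16 and 0.08 in the order of the legend, and the respiratory chain genes lie further from 0 in both comparisons with Sham-NT.

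Markers of cardiomyocytes, fibroblasts and macrophages differed between the same groups. In bulk tissue, fewer cells of a type and less RNA per cell cannot be told apart. The summed CPM of 8 cardiomyocyte markers was 66381 to 74852 in Sham-NT, 40267 to 53823 in TAC-mScarlet and 48549 to 66026 in TAC-BacNav, and 3 of the 8 were called lower in TAC-mScarlet against Sham-NT, with a median of -0.51. The 8 fibroblast markers summed to 2243 to 3010 CPM in Sham-NT, 3131 to 5126 in TAC-mScarlet and 2874 to 3336 in TAC-BacNav, with 3 of 8 called higher in TAC-mScarlet. The 8 macrophage markers summed to 484 to 639, 725 to 1189 and 709 to 844 CPM, with 5 of 8 called higher, where 2.65% of all genes were called higher and 2.52% lower. None of these markers was at 0 in any library. Without the second or the fourth Sham-NT library 0 markers of these 3 lists were called, as for the members. The third TAC-mScarlet mouse had the lowest cardiomyocyte sum (40267 CPM) and the highest fibroblast and macrophage sums (5126 and 1189 CPM). Without its library 0 cardiomyocyte, 2 fibroblast and 0 macrophage markers were called (0.692% of all genes). In the libraries with Fos above 20 CPM the counts were 2, 0 and 0 (4.87% of all genes). The 7 endothelial markers summed to 1995 to 2675 CPM in Sham-NT, 1896 to 2506 in TAC-mScarlet and 2041 to 3066 in TAC-BacNav, with 0 called by edgeR and 0 at an unadjusted p under 0.05, and a median of 0.13 in TAC-mScarlet against Sham-NT. Of the smooth muscle and pericyte markers 0 of 5 tested were called by edgeR (1 at an unadjusted p under 0.05), of the mesothelial markers 0 of 4 (0) and of the B cell markers 0 of 2 (1). The part of cell composition in the lower values of the mitochondrial ribosomal protein genes was not tested.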

How the data were processed

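Bulk RNA-seq counts of 12 mouse ventricles, 4 per group, were read from the deposited tables. Per the labels' protocols, total RNA was sequenced as paired-end Illumina libraries, and per the submitters' processing notes the authors used HISAT2 and featureCounts to make raw counts per gene. The notes name build GRCh38, while the gene identifiers are mouse Ensembl identifiers. Neither versions nor the strand setting are stated in any source used here. Positions and exon overlaps come from GENCODE release M21 (GRCm38), in which 14946 of 14957 identifiers were found when the version suffix was ignored, and 14474 with it.

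Members and lists were chosen with earlier results of these data known. Counts were tested with edgeR 4.0.16 (R 4.3.3): TMM scaling, filterByExpr (13910 genes kept, 1047 removed), glmQLFit with robust estimation on all 12 libraries, two-sided tests adjusted over all genes, called at an adjusted p under 0.05. The common biological coefficient of variation was 0.203. CPM values are TMM-scaled. The fit was tested on simulated counts. Alternatives were DESeq2 1.42.0, limma-voom (limma 3.58.1), other scalings, filters and covariates, and each library left out. A split by Fos above or below 20 CPM came from earlier results of these data. Named members were those called, the 5 smallest p in each comparison, the 3 highest and 3 lowest fold changes and per-length levels, and genes with known roles. Same-numbered mice of different groups were not treated as pairs in the main fit. Their within-group deviations correlated at -0.29 to 0.38, with a median of 0.13 and 8 of 12 pairs over 0.1. For mice with different numbers the range was -0.37 to 0.51, with a median of -0.07 and 11 of 36 pairs over 0.1. In all 3 groups mice 1 and 2 had Fos above 20 CPM and mouse 4 had it under 20 CPM, so a link between same-numbered mice is not excluded. The closest replicates differed beyond counting noise (chi-square per degree of freedom 5.70), so no library was counted as a repeat.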

Additional observations from a re-analysis of the deposited data

Results flagged for a closer look

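A value was picked out where the highest or lowest of 4 mice lay far from the other three by Dixon's criterion, which chance meets in about 1 in 20 sets. Of 99 sets checked 9 were picked out, where 4.95 would be by chance. The sets share the same 12 libraries and are not independent, so 9 against 4.95 does not show an excess. In Sham-NT the third mouse was low for Mrps16 (54.8 CPM), for Mrps21 (143 CPM) and for the mean log2(CPM + 1) of all members (6.09), and the first mouse was low for Mrps34 (15.1 CPM). In TAC-BacNav the fourth mouse was low for Mrpl12 (191 CPM), Mrpl28 (122 CPM) and Mrps18c (38.2 CPM), and the first was high for Mrpl45 (97.7 CPM). In TAC-mScarlet the second mouse was low for Mrpl47 (32.5 CPM). The third Sham-NT and the fourth TAC-BacNav libraries were also the deepest of their groups (7837342 and 11497836 counts) and had the lowest mean log2(CPM + 1) of cytosolic ribosomal protein genes of their groups, 7.91 and 8.00, where the other libraries of these groups lay at 8.38 to 8.78. The part of depth in these low values was not tested apart from the covariate fit given below.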

How the results depend on the processing

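For TAC-mScarlet against Sham-NT, where 4 members and 5.17% of all genes were called, DESeq2 called 14 members (9.86% of all genes), the Fos side as a covariate 16 (10.5%), the high Fos side alone 15 (4.87%), gene length offsets 8 (6.66%), the low Fos side alone 0 (0.672%) and log2 of the total count as a covariate 0 (0.0144%); the median moved from -0.27 to -0.13 with library size scaling, which moved the median of all genes to 0.13, and to -0.047 with the total count covariate. For TAC-BacNav against TAC-mScarlet the median of 0.08 became -0.046 on the low Fos side, which holds 1 TAC-mScarlet library assumed to vary like the other groups. For TAC-BacNav against Sham-NT the median of -0.16 became 0.070 with the total count covariate. For both TAC groups together, where 2 and 2.57% of all genes were called, library size scaling called 1 (3.79%), DESeq2 5 (7.93%), limma-voom 0 (0.863%), the Fos side covariate 12 (8.23%), the high side 10 (3.13%), the low side 0 (1.01%), gene length offsets 4 (4.18%) and the total count covariate 0 (0% of all genes), with a median of 0.000379 in place of -0.23. The cause was not tested. The total count covariate was chosen after seeing the data. Leaving out each library in turn gave 0 to 20 calls for TAC-mScarlet against Sham-NT, with medians of -0.32 to -0.22, and 0 to 22 calls for both TAC groups, with medians of -0.29 to -0.18; the highest counts came without the third Sham-NT library. The counts of 0 came without the second or the fourth Sham-NT library and, for both groups together, also without the first Sham-NT, the fourth TAC-mScarlet or the second TAC-BacNav library. Counts in the other comparisons stayed at 0, with medians of 0.03 to 0.16 (lowest without the first TAC-BacNav library, highest without the fourth) and -0.23 to -0.10. With the replicate block, 6 members were called for TAC-mScarlet against Sham-NT, 3 for both TAC groups and 0 in the others; the numbers share no stated origin, and 7 of 24 best correlates carried the same number. A fit of only the groups compared was not run for both TAC groups together, since it would be the fit of all libraries.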
